A study of Mus musculus with 13 samples.

Results

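The genes described here encode the scaffold of the presynaptic active zone: Erc1 and Erc2, Bsn and Pclo, Rims1 and Rims2, Unc13a, Ppfia2 and Ppfia3, and Rimbp2. They are taken as the rows with these symbols, with no threshold on measured values, and all 10 were found among the 55291 gene symbols of the count data. mRNA was counted in the CA1 region of 13 mouse entorhino-hippocampal tissue cultures (C57BL/6, wildtype), prepared at postnatal day 4 to 5 and grown for at least 18 days. Lesions were cut with a scalpel. The 5 control cultures were not lesioned, 4 cultures had a Schaffer collateral lesion (SCL), a cut between CA3 and CA1 that takes away the CA3 input, and 4 had an entorhinal cortex lesion (ECL), a cut through the perforant path. Tissue was taken 3 days after the lesion, 1 CA1 region per library, without the scar. Each library thus held all cell types of CA1. By the protocol, the cell bodies of the severed axons, in CA3 and the entorhinal cortex, lay outside the region collected.

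The active zone is the patch of presynaptic membrane at which synaptic vesicles dock, are primed and fuse. Its scaffold is a protein network in which RIM proteins bind vesicles, calcium channels and priming factors, while ELKS proteins, liprins, bassoon and piccolo hold the network together and in place opposite the postsynaptic density. Messenger RNA for presynaptic proteins is largely held in the cell body of the neuron that makes the synapse, so libraries of CA1 mainly report pyramidal cells and interneurons of CA1 that send axons of their own, and glia where a gene is not neuron-specific, as is the case for Erc1.

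The control libraries held 14371152 to 21092612 counts in total, the SCL libraries 16405517 to 56786613 and the ECL libraries 20210165 to 46449937. Markers of CA1 pyramidal cells (5 genes) summed to between 6971 and 12347 normalised read counts in each library, and those of dentate granule cells (5 genes) to between 313 and 622, although the extract protocol in the labels names the dentate gyrus as the tissue. Those of CA3 (5 genes) summed to 1525 to 2737 in the controls, 1296 to 3299 after SCL and 1664 to 3827 after ECL. Whether CA3 cells were part of the samples was not tested. A normalised read count is the raw count divided by a library's TMM-adjusted size relative to the mean of all 13 libraries. Differences were tested with edgeR's quasi-likelihood test across all genes with a mean of at least 150 normalised counts, two-sided, and adjusted by Benjamini-Hochberg over all of them, with a threshold of 0.05. The protocol isolated each CA1 region from an individual culture, and nothing says which cultures came from the same animal, so the p-values measure the spread between cultures.

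In control cultures, levels per length differed widely between the members. Counts per kilobase of exon and 1000000 counts were highest for Ppfia2, a liprin-alpha that links the scaffold to adhesion receptors, at 20.8 ± 4.2 (SD, n = 5). Rims1 and Rims2, the RIM proteins that bind Rab3 on vesicles, followed with 12.7 ± 0.977 and 11.2 ± 0.46, then Erc2 (ELKS2) with 10.8 ± 0.947 and Pclo (piccolo) with 9.36 ± 0.676. In the lower range were Bsn (bassoon) with 5.89 ± 1.36, Erc1 (ELKS1) with 4.71 ± 0.518, Rimbp2, which links RIM to calcium channels, with 4.33 ± 0.898, Unc13a (Munc13-1, the main vesicle priming factor) with 2.44 ± 0.427 and Ppfia3 with 0.831 ± 0.336. Among neighbours in this order, the ranges of the control libraries did not overlap between Ppfia2 and Rims1, Pclo and Bsn, Rimbp2 and Unc13a, and Unc13a and Ppfia3, while all other neighbours overlapped. With the length of the longest transcript in place of all exons, Rims2 moved to 24.3 ± 0.995 and Erc2 to 16.8 ± 1.48, and the order of the members in the middle changed with it.

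SCL was compared with control to ask how the loss of CA3 input bears on these transcripts in the denervated region, and ECL to ask the same for entorhinal input. After SCL, 6 of the 9 members tested fell, namely Erc1, Rimbp2, Ppfia2, Erc2, Pclo and Rims2. The same 6 fell after ECL, where all 10 members passed the minimum. No member rose after either lesion. Across all genes tested after SCL, 24.6% changed and 11.6% fell, and after ECL 27.6% changed and 12.4% fell. The median log2 fold change of the members tested was -0.59 after SCL and -0.47 after ECL, beside 0.01 and -0.01 over all genes tested. Both comparisons share the 5 control libraries, so the match between them is not independent.

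**Figure D1:**
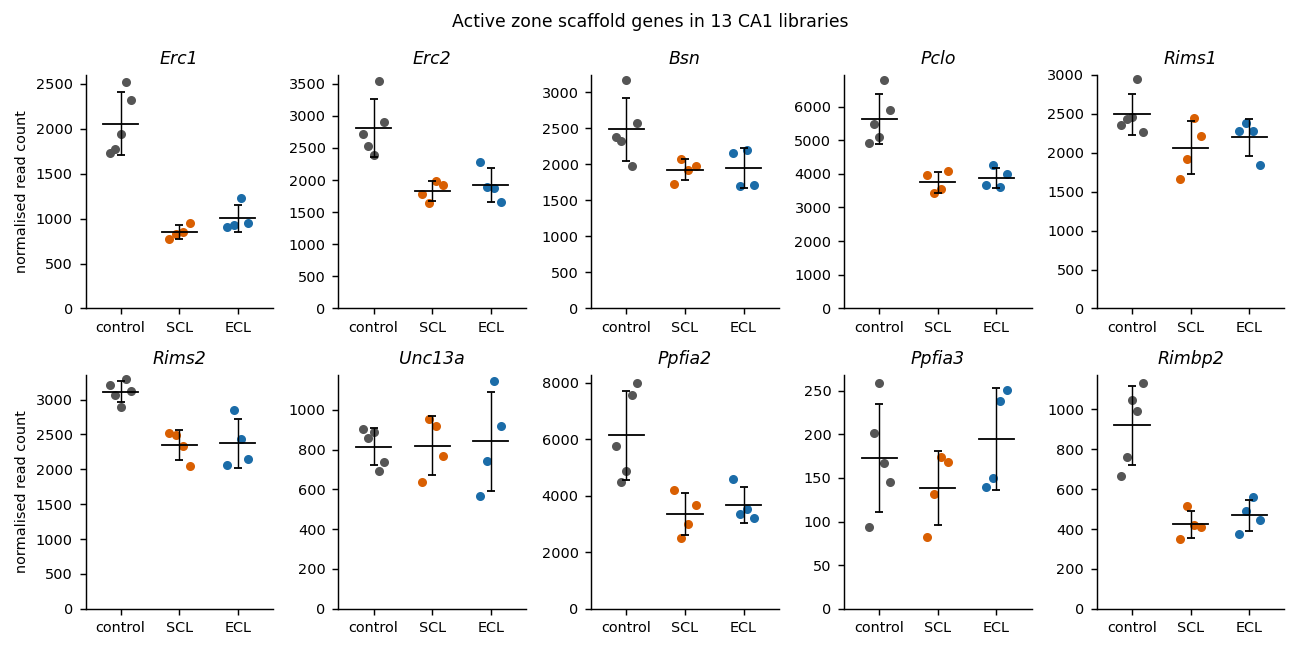
Normalised read counts (vertical axes, starting at 0) of the 10 members in each of 5 control, 4 SCL and 4 ECL libraries (points), with group means and SD (bars). Erc1, Erc2, Pclo, Rims2 and Rimbp2 lay lower in every lesioned library than in every control. Ppfia2 overlapped the controls after ECL only, and Bsn, Rims1, Unc13a and Ppfia3 overlapped them after both lesions.

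Erc1 (ENSMUSG00000030172, chr6:119570796-119848167, minus strand, GRCm38) encodes ELKS1, which binds RIM, bassoon and liprins and is also made outside the nervous system. Its normalised read counts were 1730.3, 1777, 1939.7, 2515 and 2322 in control replicates 1 to 5. They were 769, 832, 847 and 953 in the SCL libraries and 908, 924, 1226 and 953 in the ECL libraries. Every lesioned library thus lay below the lowest control. Erc1 fell by 1.28 on the log2 scale after SCL (SE 0.15, adjusted p = 0.00081) and by 1.04 after ECL (SE 0.16, adjusted p = 0.000686), to 0.412 and 0.488 of the control level. It showed the largest fall of the members in both comparisons, and the call held in all 23 alternatives run for SCL and all 22 for ECL. Of its exon bases, 11.79% lie opposite Gm44317, which had 0 counts in every library. Since counting ignored strand, reads there cannot be assigned to one gene, so these counts do not show whether Gm44317 was expressed.

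Erc2 (ENSMUSG00000040640, chr14:27622428-28478537, plus strand) encodes ELKS2, the brain-specific paralogue. It was read at 2723, 2530.1, 2388, 3548 and 2897 normalised counts in the controls. After SCL the values were 1780.3, 1639, 1978 and 1924, and after ECL 2277, 1886, 1873 and 1652. Neither lesioned group overlapped the controls, although ECL replicate 1 came close to the lowest control. The fall was 0.63 (SE 0.14, adjusted p = 0.00714) after SCL and 0.55 (SE 0.15, adjusted p = 0.0168) after ECL. Without ECL replicate 4, the adjusted p of Erc2 after ECL was 0.0665.

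The ratio of Erc1 to Erc2 counts within a library needs no scaling between libraries. It was 0.635, 0.702, 0.812, 0.709 and 0.802 in the controls, 0.432, 0.507, 0.428 and 0.495 after SCL, and 0.399, 0.49, 0.655 and 0.577 after ECL. All SCL libraries lay below all controls, and after ECL replicate 3 reached into the control range. The mean log2 ratio was lower by 0.65 after SCL, where an exact permutation test (two-sided) gave p = 0.00794, the smallest value 5 against 4 libraries allow. After ECL the log2 difference was -0.48 with p = 0.0159 in the exact permutation test. Adjusted over the 12 exact permutation tests of ratios (4 pairs of paralogues in 3 comparisons), both gave p = 0.0952 and missed the threshold. With this many tests, 1 pair at the smallest possible p could not pass on its own, so this miss does not decide whether the ratio changed. Between the lesions, 4 against 4 libraries allow no p under 0.0286 in the exact permutation test, so there too no pair could pass on its own. Of the other pairs, Rims1 to Rims2 was nearest to it, with a log2 difference of 0.22 after ECL (exact permutation test, adjusted p = 0.254), and no pair passed in any comparison.

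**Figure D2:**
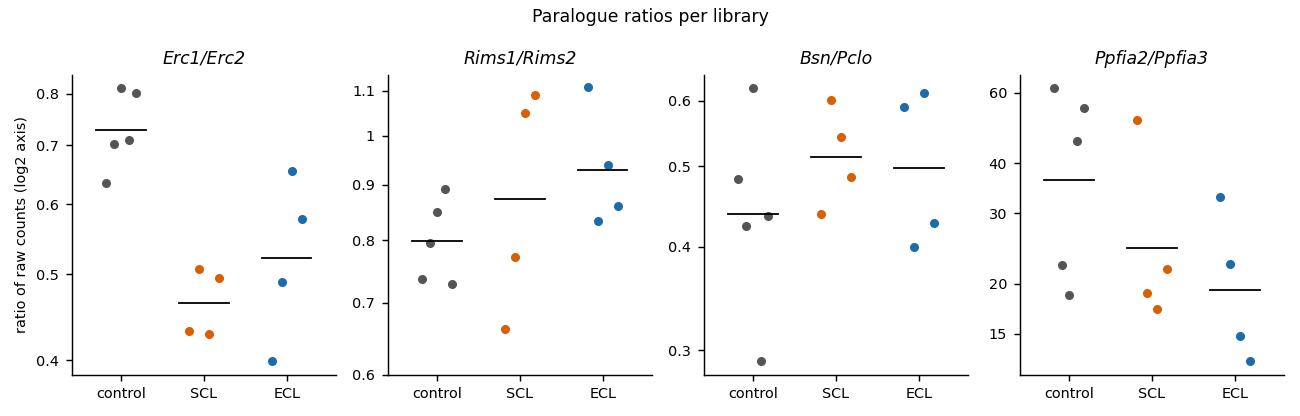
Ratio of raw counts of 4 pairs of paralogues in each library (points; log2 axis), with the geometric mean per group (bars). The Erc1 to Erc2 ratio lay at 0.635 to 0.812 in controls and at 0.428 to 0.507 after SCL. After ECL it lay at 0.399 to 0.655 and overlapped the controls, and the groups of the other 3 pairs overlapped in both lesions.

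Rimbp2 (ENSMUSG00000029420, chr5:128757791-128953486, minus strand) encodes RIM-binding protein 2. Its normalised counts were 667, 761, 1046, 991 and 1134 in the controls, 349, 514, 423 and 412 after SCL, and 377, 491, 560.0 and 445 after ECL. All 8 lesioned libraries were below the lowest control. It fell by 1.12 after SCL (SE 0.19, adjusted p = 0.00281) and by 0.97 after ECL (SE 0.20, adjusted p = 0.00299), and these calls held in all alternatives, as for Erc1.

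Of the genes for RIM proteins, Rims2 fell and Rims1 did not pass the test. Rims2 (ENSMUSG00000037386, chr15:39198261-39684372, plus strand) lay at 3207, 3065, 2891, 3291 and 3121 normalised counts in the controls, with the smallest coefficient of variation of the members (4.88%), at 2523, 2485, 2336 and 2044 after SCL and at 2062, 2848, 2428 and 2149.7 after ECL. Neither lesioned group overlapped the controls. The fall was 0.41 (SE 0.11, adjusted p = 0.0191) after SCL and 0.39 (SE 0.13, adjusted p = 0.0422) after ECL. This was the least stable call, lost in 8 of 23 alternatives after SCL and 15 of 22 after ECL. Among fits that left out single libraries, it was lost after SCL without SCL replicate 3 (adjusted p = 0.0511) or 4 (0.0545). After ECL it was lost without control replicate 1 (0.0799), 2 (0.0617), 4 (0.0582) or 5 (0.0683) or ECL replicate 1 (0.105), 3 (0.0605) or 4 (0.139).

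Rims1 (ENSMUSG00000041670, chr1:22286251-22805994, minus strand) was read at 2362, 2438, 2453, 2939.5 and 2272 normalised counts in the controls. The SCL libraries gave 1668, 1919, 2444 and 2219.8 and the ECL libraries 2279.8, 2375, 2279.7 and 1848, so that both groups overlapped the controls. The log2 fold change was -0.28 (95% interval -0.58 to 0.02, adjusted p = 0.155) after SCL and -0.18 (-0.48 to 0.11, adjusted p = 0.339) after ECL.

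Ppfia2 (ENSMUSG00000053825, chr10:106470339-106935952, plus strand), the member with the highest level per length, varied most between controls in absolute terms, with 5749, 4479.9, 4861, 7574 and 7996 normalised counts. The SCL libraries held 4204, 2489, 3008 and 3661, all below the controls. Of the ECL libraries with 4597, 3339.8, 3528 and 3196, replicate 1 lay above the lowest control. Ppfia2 fell by 0.88 after SCL (SE 0.20, adjusted p = 0.00937) and by 0.74 after ECL (SE 0.19, adjusted p = 0.0112). Of its exon bases, 24.49% lie opposite exons of Acss3 and C230021G24Rik, and since counting ignored strand, reads there cannot be assigned to one gene. Acss3 itself had 17 to 117 raw counts in the controls, beside 2812 to 5406 for Ppfia2.

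Ppfia3 (ENSMUSG00000003863, chr7:45339122-45367019, minus strand), the other liprin-alpha, had 65 to 150 raw counts in the controls, 85 to 297 after SCL and 133 to 239 after ECL. It did not reach the minimum for the SCL comparison. With edgeR's own expression filter in its place, its log2 fold change after SCL was -0.26 (SE 0.32, adjusted p = 0.604), and after ECL it was 0.16 (95% interval -0.50 to 0.83, adjusted p = 0.73). Both estimates are compatible with a change in either direction at this depth.

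Bassoon and piccolo are the largest proteins of the scaffold and are related in sequence. Pclo (ENSMUSG00000061601, chr5:14514918-14863459, plus strand) held 4915, 5483, 5105, 6783 and 5901 normalised counts in the controls, 3958, 3439.9, 3538 and 4076 after SCL and 3669.85, 4252, 3598 and 3994 after ECL. The lesioned libraries did not overlap the controls. Pclo fell by 0.59 (SE 0.13, adjusted p = 0.00744) and by 0.54 (SE 0.14, adjusted p = 0.00995). Bsn (ENSMUSG00000032589, chr9:108096022-108190384, minus strand) was read at 2372, 2325, 3169, 1974 and 2576 in the controls, at 1732, 2068, 1919.8 and 1979 after SCL and at 2162, 1701, 2202 and 1706 after ECL, with overlap in both cases because of the low control replicate 4. Its log2 fold change was -0.38 (95% interval -0.70 to -0.06, adjusted p = 0.078) and -0.35 (-0.70 to -0.01, adjusted p = 0.116). Without control replicate 4, Bsn passed the threshold after SCL, at -0.46 (adjusted p = 0.0314).

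Unc13a (ENSMUSG00000034799, chr8:71624417-71671757, minus strand) did not pass the test after either lesion. Its normalised counts were 901, 856, 887, 694 and 736 in the controls, 636, 955, 919.6 and 766 after SCL, and 564, 742, 1146 and 918 after ECL. The lesioned libraries spread to both sides of the control range. The log2 fold change was 0.00 after SCL (95% interval -0.35 to 0.35, adjusted p = 0.998) and 0.05 after ECL (-0.38 to 0.47, adjusted p = 0.885). With Erc1 and Rimbp2 lower, the mean level of Unc13a per length, 2.49 ± 0.54 after SCL and 2.58 ± 0.864 after ECL (SD, n = 4), stood above theirs, at 2.00 ± 0.278 and 2.06 ± 0.418 after SCL and 2.37 ± 0.444 and 2.27 ± 0.439 after ECL, with overlapping ranges, whereas in the controls it stood below both. With the length of the longest transcript, Erc1 stayed above Unc13a after both lesions (3.72 against 3.07 after SCL and 4.41 against 3.18 after ECL). Of the exon bases of Unc13a, 3.92% lie opposite Colgalt1, which had 113 to 277 raw counts in the controls beside 424 to 630 for Unc13a, and whose reads there cannot be told apart from those of Unc13a.

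Counted by ranges, the 6 members that fell after SCL all had every SCL library below every control, as had 11.1% of all genes tested. After ECL this held for 5 members, all but Ppfia2, and for 11.8% of all genes tested. The counts of all 10 members together made up 0.0938% to 0.105% of a control library, 0.0621% to 0.0727% of an SCL library and 0.0678% to 0.0764% of an ECL library, so that neither lesioned group overlapped the controls.

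ECL and SCL were compared with each other to ask whether the response depends on the pathway cut. No member passed the test, and 0% of the 12478 genes tested did. At an unadjusted p under 0.05 there were 918 genes, and DESeq2 called 64. The estimates for the members ran from 0.02 for Bsn and Rims2 to 0.49 for Ppfia3, with a smallest unadjusted p of 0.112 and a smallest adjusted p of 0.748. DESeq2 called no member either. For Erc1 the difference was 0.25 with a 95% interval from -0.07 to 0.56, for Rimbp2 0.15 (-0.24 to 0.54) and for Unc13a 0.05 (-0.43 to 0.53). With 4 libraries per group, the data are thus compatible with differences anywhere in these intervals. In simulated data with the same spread for all genes, the fit for this contrast recovered 78% of 2-fold and 92% of 4-fold changes. Differences as small as those estimated for the members were not simulated.

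**Figure D3:**
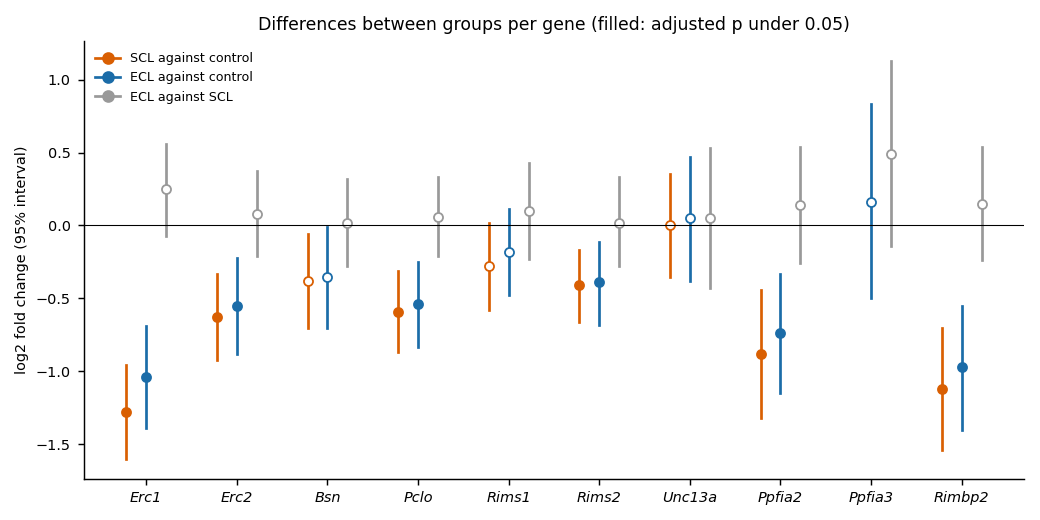
Log2 fold changes (points) with 95% intervals (bars) of each member in SCL against control, ECL against control and ECL against SCL. Filled points passed the threshold: Erc1, Erc2, Pclo, Rims2, Ppfia2 and Rimbp2 lie below 0 in both lesions, and no member passed between the lesions.

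The members have long transcripts, and in these libraries long transcripts fell more often than short ones. Of the genes whose longest transcript has under 2000 bases, 4.96% fell after SCL and 7.2% after ECL, against 31.1% and 23% of those over 8000 bases. The longest transcripts of the members run from 4800 bases for Rims2 to 20084 for Pclo. Of the 8 members with at least 6000 bases, 5 fell after SCL and 5 after ECL, beside 25.3% and 20.7% of all such genes. Adding an offset for transcript length and GC content to the fit reduced the falls of Erc1 to 1.06 (adjusted p = 0.000997) after SCL and 0.84 (adjusted p = 0.000853) after ECL, and those of Rimbp2 to 0.98 (adjusted p = 0.00391) and 0.85 (adjusted p = 0.00395). Ppfia2 fell by 0.58 (adjusted p = 0.0218) and 0.45 (adjusted p = 0.0466) with the offset. Pclo, the member with the longest transcript, was then at -0.10 (adjusted p = 0.525) and -0.07 (adjusted p = 0.69), and Bsn at 0.03 (adjusted p = 0.896) and -0.04 (adjusted p = 0.89). Erc2 was still lower after SCL, at -0.44 (adjusted p = 0.0163), as was Rims2, at -0.34 (adjusted p = 0.0349), but neither passed after ECL, at -0.34 (adjusted p = 0.0625) and -0.28 (adjusted p = 0.10). With this offset the Erc1 to Erc2 ratio passed the exact permutation test in both lesions, with log2 differences of -0.61 and -0.48 (both adjusted p = 0.0437).

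**Figure D4:**
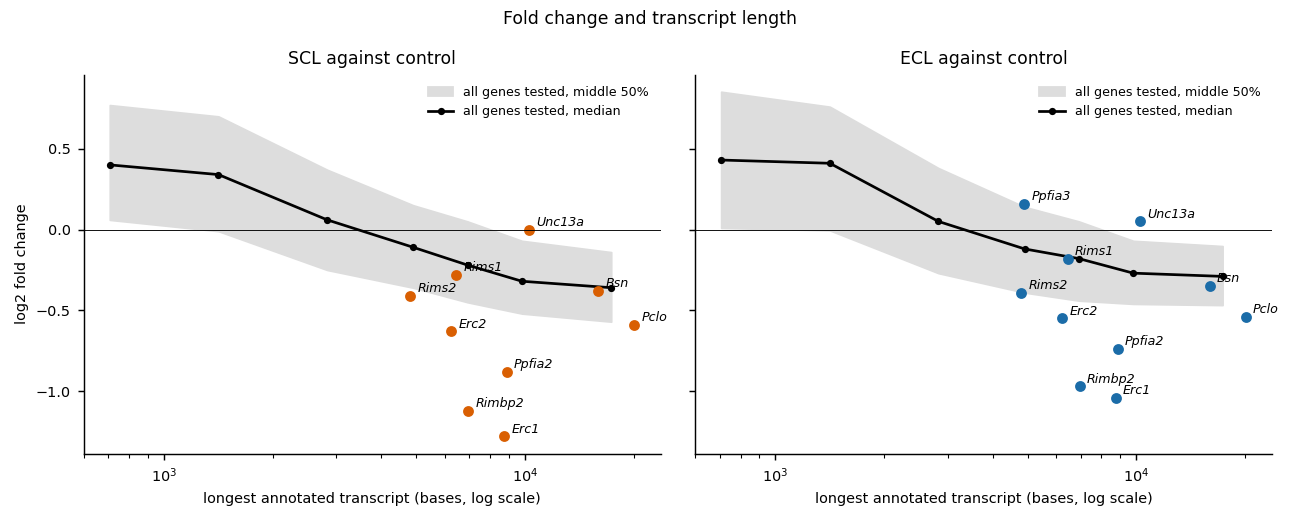
Log2 fold change against the length of the longest annotated transcript (log axis) for the members tested (named points), with the median (line) and middle 50% (band) of all genes tested per length bin. Erc1, Rimbp2, Ppfia2 and Erc2 lie below the band in both lesions, Bsn lies within it and Unc13a above it.

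**Figure D5:**
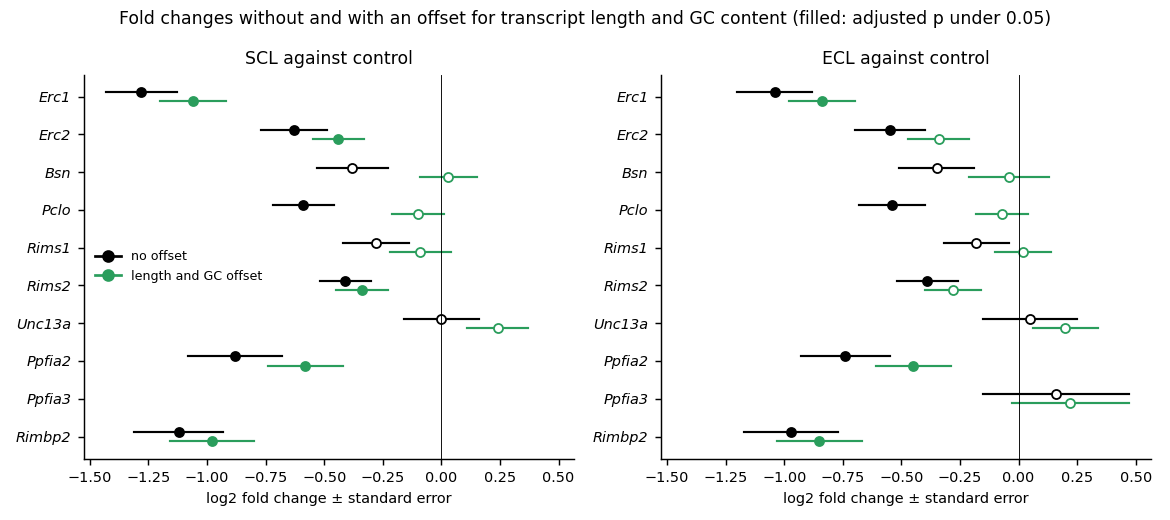
Log2 fold change ± standard error of each member without (black) and with (green) an offset for transcript length and GC content; filled points passed the threshold. Pclo moves from -0.59 to -0.10 after SCL, while Erc1 moves from -1.28 to -1.06.

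Cell type markers also moved with the lesions. Of 6 neuron markers, Rbfox3, Nefl and Nefm fell after SCL, and after ECL these 3, Map2 and Tubb3 did, with medians of -0.40 and -0.45. Their summed level was 34425 to 40461 normalised counts in the controls, 26795 to 32216 after SCL and 26001 to 29818 after ECL, without overlap. The estimates for Erc1 and Rimbp2 lay below that of the neuron marker with the largest fall, Nefm, which was at -1.03 after SCL and -0.72 after ECL, although these differences between genes were not tested, and Unc13a was at 0.00 and 0.05 in the same libraries. Of the 5 CA1 pyramidal cell markers, Pou3f1 alone fell after SCL (-0.82, adjusted p = 0.00667) and after ECL Wfs1 came nearest (0.65, adjusted p = 0.123). All 8 microglia markers rose after SCL and 5 after ECL, and their sum went from 8998 to 11266 in the controls to 18659 to 43386 after SCL and 19259 to 30481 after ECL. Astrocyte markers rose in 4 of 6 cases after SCL and 3 after ECL, and oligodendrocyte markers in 2 of 6 after each lesion. No marker was at 0 in all libraries of a group. In such bulk samples fewer cells of a type and less RNA per cell cannot be told apart, and the part of these shifts in the falls of the scaffold genes was not tested.

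Calls among the other presynaptic genes went in both directions, as did those over all genes tested. Of 11733 genes, 1529 rose and 1362 fell after SCL, and of 11392 genes, 1722 rose and 1417 fell after ECL. Close relatives of the members (Rims3, Rims4, Unc13b, Unc13c, Unc13d, Ppfia1, Ppfia4, Tspoap1 and Rimbp3, of which 7 were tested) had a median of -0.22 after SCL and -0.31 after ECL. Ppfia1, the liprin-alpha of many tissues, passed after SCL (-0.66, adjusted p = 0.00823), beside -0.34 (adjusted p = 0.0879) after ECL. Unc13c, a Munc13 isoform, passed after ECL (-0.79, adjusted p = 0.0284), beside -0.77 (adjusted p = 0.0652) after SCL. Neither gene passed between the lesions, at 0.31 (adjusted p = 0.702) and -0.02 (adjusted p = 0.995). Of 10 calcium channel subunits, which RIM and RIM-binding proteins tether at the active zone, 1 rose and 2 fell after SCL, and 1 rose and 3 fell among 9 tested after ECL. The beta subunit gene Cacnb2 fell by 1.13 (adjusted p = 0.00438) and 0.83 (adjusted p = 0.00564), while its paralogue Cacnb1 rose by 1.11 (adjusted p = 0.0244) and 1.53 (adjusted p = 0.00267) on the log2 scale. Cacna1e, the pore subunit of R-type channels, fell by 0.58 (adjusted p = 0.0247) and 0.52 (adjusted p = 0.0431). The third to fall after ECL was Cacna1a, the pore subunit of P/Q-type channels, at -0.69 (adjusted p = 0.0354), named after its value was seen.

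Binding partners of the scaffold, 21 tested, had medians of 0.06 and 0.02, and 1 rose after SCL and 3 after ECL. Over all genes tested, 1529 of 11733 rose after SCL and 1722 of 11392 after ECL, so rises were not more frequent among the partners. Rabac1, which binds Rab3 and piccolo, rose by 0.87 after SCL (adjusted p = 0.0391) and 1.43 after ECL (adjusted p = 0.00147), and after ECL Git1, a partner of piccolo, rose by 0.94 (adjusted p = 0.0223) and Rab3a, the vesicle GTPase bound by RIM, by 0.66 (adjusted p = 0.0407). Among 15 genes of the release machinery tested, Napa (alpha-SNAP, which helps to take SNARE complexes apart) rose by 1.17 (adjusted p = 0.00745) and 1.56 (adjusted p = 0.000496). Its brain paralogue Napb fell by 0.47 (adjusted p = 0.0224) and 0.45 (adjusted p = 0.0374). Of 9 vesicle protein genes tested, Slc32a1 came nearest to the threshold after SCL (-0.79, adjusted p = 0.0603). After ECL Syn1 (synapsin 1) rose by 0.86 (adjusted p = 0.0139) while Slc32a1, the vesicular GABA transporter, fell by 1.12 (adjusted p = 0.0149) and Syp (synaptophysin) by 0.70 (adjusted p = 0.0354). The calls of Cacnb2, Cacnb1, Rabac1 and Napa after ECL held in all 22 alternatives. Calls lost most often in the alternatives were others: those of Cacna1e and Napb were each lost in 13 of 22 alternatives after ECL and 10 of 23 after SCL, Syp in 11, Unc13c in 10 and Rab3a in 9 of 22 after ECL, and Rabac1 in 8 of 23 after SCL.

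Promoter sequences are shown for the members that fell most, Erc1 and Rimbp2, for the paralogue Erc2 and for Unc13a, which did not pass the test, so that members with and without a fall can be set side by side. RefSeq (GRCm38.p6) gave a promoter for 9 of the 10 members, all but Rims2. The 250 bases before the RefSeq start are written 5′ to 3′ on the strand of the gene, and capitals mark matches on either strand to GGGCGG (the GC box bound by Sp1-type factors), GCGTGGGCG or GCGGGGGCG (Egr sites), and TGANTCA (AP-1 sites).
Erc1 promoter, chr6:119848151-119848400, strand -: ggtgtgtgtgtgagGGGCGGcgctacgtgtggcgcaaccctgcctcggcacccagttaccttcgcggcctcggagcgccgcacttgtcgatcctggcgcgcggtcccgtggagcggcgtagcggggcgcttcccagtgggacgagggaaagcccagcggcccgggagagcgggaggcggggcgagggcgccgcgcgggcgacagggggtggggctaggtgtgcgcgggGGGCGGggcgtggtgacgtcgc
Rimbp2 promoter, chr5:128953487-128953736, strand -: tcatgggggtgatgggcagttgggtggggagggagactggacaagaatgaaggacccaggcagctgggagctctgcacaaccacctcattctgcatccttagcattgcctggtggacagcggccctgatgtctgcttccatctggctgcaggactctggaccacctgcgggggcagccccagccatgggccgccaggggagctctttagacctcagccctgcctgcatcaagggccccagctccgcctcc
Erc2 promoter, chr14:27622157-27622406, strand +: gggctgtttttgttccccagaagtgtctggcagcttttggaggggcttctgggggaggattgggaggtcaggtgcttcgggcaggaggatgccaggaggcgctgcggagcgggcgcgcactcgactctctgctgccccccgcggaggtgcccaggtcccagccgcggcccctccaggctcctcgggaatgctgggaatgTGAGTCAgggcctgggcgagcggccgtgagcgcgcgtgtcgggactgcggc
Unc13a promoter, chr8:71671758-71672007, strand -: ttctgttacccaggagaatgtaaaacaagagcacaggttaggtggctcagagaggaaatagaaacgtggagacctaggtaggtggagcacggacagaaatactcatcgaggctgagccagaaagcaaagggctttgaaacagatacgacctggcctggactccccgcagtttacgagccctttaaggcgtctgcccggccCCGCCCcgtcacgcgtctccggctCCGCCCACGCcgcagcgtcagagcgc

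The Erc1 promoter holds 36 CpG pairs, the most of the members, and the Rimbp2 promoter 4, the fewest, beside a median of 6 over all 32851 promoters, so that the pair of genes with the largest falls have unlike promoters. The GC box was found in 6 of the 9 members and in 32.7% of all promoters, and neither Rimbp2 nor Erc2 holds it. An Egr site was found in Unc13a alone, where it shares bases with a GC box, and in 3.06% of all promoters. The AP-1 site occurred in Erc2 alone and in 6.75% of all promoters, and the cAMP response element TGACGTCA in no member and in 1.55%. The GC box was added after the sequences were seen.

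Across the 13 libraries, the genes whose log2 normalised counts ran most nearly in parallel with the members' mean pattern were 4632415L05Rik (Pearson's r = 0.981), Myl12b (0.972), and Slc39a6, Ankrd12 and Tcaf1 (each 0.967), out of 11320 genes. These values describe libraries that share groups and differ in depth. Among the members, Erc1 followed the mean of the others most closely (r = 0.98), then Rimbp2 (0.936), Erc2 (0.858) and Pclo (0.85), while Rims1 (0.643) and Bsn (0.603) followed less and Unc13a did not (r = -0.071). The shift between controls and lesioned libraries enters these values too. With group means taken out, pairs of members ran from r = -0.704 (Unc13a and Ppfia2) to 0.733 (Erc2 and Ppfia2). Pairs with Erc1 then ran from -0.0211 (Rims2) to 0.694 (Rimbp2).

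Scaling bears on these counts. When the TMM factors were computed over every symbol, the median log2 fold change of all genes was 0.21 after SCL (0.01 otherwise) and 0.18 after ECL (-0.01 otherwise), and falls made up 19.1% and 22% of all calls in place of 47.1% and 45.1%. Under that scaling 5 members fell after SCL and 2 after ECL, beside 602 of the 11733 and 695 of the 11392 genes tested. Erc1 was then at -1.07 and -0.84, and Rimbp2 at -0.91 and -0.78, all past the threshold. Without SCL replicates 2 and 3, the deepest SCL libraries, only 2 SCL libraries were left. Of 10826 genes tested, 332 passed in place of 2891, and 107 of them fell. Of the members, Erc1 (-1.26, adjusted p = 0.0336) and Rimbp2 (-1.28, adjusted p = 0.0386) then passed, while Erc2 was at -0.61, Ppfia2 at -0.64, Pclo at -0.49 and Rims2 at -0.46 without passing. With all counts halved, 2942 genes and the 6 members passed.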

How the data were processed

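The authors removed adapters with cutadapt 3.5, mapped reads with STAR 2.7.8a to mm10 and counted exonic reads per gene without regard to strand with featureCounts 2.0.1 on GENCODE M25. The deposited values are raw counts, 1 library each, not pooled. Between 63% and 74.3% of the counts from 1 to 20 were even, so mates appear to have been counted separately. Here edgeR 4.0.16 (R 4.3.3; glmQLFit, glmQLFTest) was fitted to each pair of groups with TMM factors over the genes tested, without covariates. DESeq2 1.42.0, other scalings and filters, a sex term, a replicate block, an offset fitted with mgcv 1.9.3 and leaving out each library were alternatives. Sex was read from letters in the column headings, which the labels do not give; by these letters controls were 2 male and 3 female, SCL 1 and 3, ECL 3 and 1. Fits were tested on simulated data. Lengths came from GENCODE M21 (53289 symbols matched). Exact permutation tests used scipy 1.17.1. Named genes were the members, at most 3 called genes per context list with the smallest adjusted p, and the 5 most alike genes; 1 gene named by this rule is not reported here. Members and lists were chosen with earlier results of these data known.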

Additional observations from a re-analysis of the deposited data

Results flagged for a closer look

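In each group of libraries, the highest and lowest value of each member were compared with Dixon's critical value. Of 30 groups, 2 held a value beyond it, and chance alone marks about 1 in 20. Erc1 in ECL replicate 3 was at 1226.4 normalised counts, above the 908 to 953 of the other ECL libraries and below every control. Without that library Erc1 was at -1.14 after ECL (adjusted p = 0.000682, edgeR). Rims1 in control replicate 4 was at 2939.5, above the 2272 to 2453 of the other controls, and without that library its log2 fold change was -0.22 (adjusted p = 0.255) after SCL and -0.12 (adjusted p = 0.528) after ECL.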

How the results depend on the processing

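After SCL the number of members that fell stayed within 1.5 times the 6 reported under all alternatives but 2. Without a minimum count it was 3, beside 2222 of 48069 genes tested. Without both deep SCL libraries, an alternative added after seeing the data, it was 2, beside 107 of 10826. After ECL it was 2 with TMM factors over all symbols (beside 695 of 11392 genes) and 3 without a minimum (4581 of 47784). It was 3 with the length and GC offset (1653 of 11392), and 2 with that offset and the replicate block together (1420 of 11535). Leaving out each library gave 5 to 7 members after SCL (beside 760 to 1364 genes), 4 to 6 after ECL (842 to 1410) and 0 between the lesions. The number of paralogue ratios past the threshold was 1 with the offset in each lesion in place of 0. Values that changed sign, none of them called, were as follows, and the cause was not tested. After SCL, Bsn was at 0.03 with the offset and 0.08 with the offset and block, and Unc13a at 0.00 with RLE and DESeq2, -0.05 with the replicate block, -0.23 without both deep SCL libraries and -0.08 to 0.11 with 1 library left out. After ECL, Rims1 was at 0.02 with TMM over all symbols, no minimum or the offset, Unc13a at -0.03 with the replicate block, -0.11 with the sex term and -0.14 to 0.21 with 1 library left out, and the Bsn/Pclo ratio at -0.01 with the offset. For ECL against SCL, Bsn was at -0.07 (offset) and -0.11 (offset and block), Unc13a at -0.04 (both) and -0.15 (sex term), Pclo at -0.02 and Napb at -0.15 (sex term), Unc13c at 0.03 (replicate block), 0.01 (offset and block) and 0.02 (heading number block), and the Rims1/Rims2 ratio at -0.00 (difference of medians). With 1 library left out, this contrast ran from -0.05 to 0.09 for Bsn, -0.14 to 0.20 for Unc13a, -0.07 to 0.13 for Napb, -0.20 to 0.18 for Unc13c, -0.01 to 0.14 for Erc2, -0.07 to 0.09 for Rims2 and -0.01 to 0.16 for Cacna1e, and for the ratios from -0.04 to 0.19 (Rims1/Rims2), -0.14 to 0.06 (Bsn/Pclo) and -0.61 to 0.01 (Ppfia2/Ppfia3). Over all genes, 2891 calls after SCL became 5390 without a minimum, 1904 and 1672 without SCL replicates 2 and 3, and 1824 with column heading numbers as a block; 3139 after ECL became 8034 without a minimum. Between the lesions, calls numbered 217 without a minimum, 54 without SCL replicate 3 and at most 2 in other edgeR alternatives.

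Replicate numbers did not pair the libraries: correlations of deviations between same-numbered libraries ran from -0.14 to 0.50, and not every library correlated best with its own number. With the replicate block, 6 members fell after SCL and 5 after ECL, beside 1022 of 11886 and 1131 of 11535 genes tested, and no member differed between the lesions. Depth limits Ppfia3 most. Ratios of Ppfia2 to Ppfia3 after SCL could not be given with the offset, for want of a tested Ppfia3.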

Other observations

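Interneuron markers did not move as a group. Of 7, Gad1, an enzyme of GABA synthesis, fell after both lesions (-0.41, adjusted p = 0.0359 after SCL; -0.62, adjusted p = 0.0171 after ECL, edgeR), and the neuropeptide gene Npy rose (1.00, adjusted p = 0.00718; 0.87, adjusted p = 0.0487). Gad2, Pvalb, Sst, Vip and Lhx6 did not pass, with log2 fold changes between -0.26 and 0.31.

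Of the transcripts annotated opposite to members, 2 with low counts that were lower after both lesions are given first, picked after their values were seen. Gm26954, opposite Pclo, had 5 to 23 raw counts in the controls, 1 to 8 after SCL and 1 to 5 after ECL. With edgeR's own expression filter its log2 fold change was -2.60 (SE 0.70, adjusted p = 0.0244) after SCL and -3.09 (SE 0.79, adjusted p = 0.0111) after ECL. Gm42875, opposite Rimbp2, had 1 to 31 raw counts in the controls and 0 to 4 in each lesioned group, and was not tested. Mtag2, opposite Ppfia3, went the other way without passing in the same edgeR fits, at 1.44 (adjusted p = 0.338) after SCL and 1.65 (adjusted p = 0.242) after ECL. Colgalt1, opposite Unc13a, was at 0.17 and 0.13, and Acss3, opposite Ppfia2, at -0.80 and -1.07, also without passing. Since counting ignored strand, reads of these transcripts and of their partners cannot be told apart where exons overlap.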
